A study of Mus musculus with 3 samples.

Results

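Cathepsins are proteases that work mainly in the acid interior of endosomes and lysosomes. Most are made as inactive precursors, are carried to the lysosome on mannose 6-phosphate receptors, and are activated there by removal of a propeptide. They belong to different catalytic classes: cysteine proteases, which are held in check by cystatins and stefins, aspartic proteases and serine carboxypeptidases. In antigen-presenting cells they degrade proteins into peptides and trim the invariant chain from MHC class II molecules, and macrophages can also secrete them.

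The expression of 10 cathepsin genes (Ctsa, Ctsb, Ctsc, Ctsd, Ctse, Ctsh, Ctsk, Ctsl, Ctss and Ctsz) was followed across the 3 populations of the series. The genes were taken from a fixed list by name, and all 10 were among the 22238 genes quantified in every library. The cells came from wild-type C57BL/6J mice, 10 to 12 weeks old, in which experimental autoimmune encephalomyelitis (EAE) was induced by immunization with a peptide of myelin oligodendrocyte glycoprotein in complete Freund's adjuvant, with 250 ng of pertussis toxin given at 2 and 24 h. No library came from mice without EAE. Bone marrow (BM) monocytes were sorted as Ly6Chi Ly6G- CD11c- cells, spinal cord (SC) monocytes as CD64+ Ly6Chi Ly6G- cells, and spinal cord monocyte-derived antigen-presenting cells (APCs) as CD64+ Ly6Clow/- Ly6G- cells, all within the CD45+ CD11b+ gate on days 14 to 15. Each population was 1 RNA-Seq library of cells pooled across mice, 13 mice from 2 experiments for the bone marrow and 18 mice from 3 experiments for each spinal cord population. There are therefore no replicates, no difference below was tested between conditions, and every interval covers counting error only, in which PCR copies are not independent molecules. For the APC library 1 label names bone marrow as the source, whereas its title, its tissue label and the design name the spinal cord, and the spinal cord was used here.

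Expression is given as estimated reads and as TPM (a share of the transcripts, corrected for gene length), rescaled to the same sum over the common genes in each library. The estimated reads of all genes summed to 33280643 in BM monocytes, 27283795 in SC monocytes and 28209589 in APCs. The APC values were deposited for 22242 genes and those of each monocyte population for 54432, so the APCs were quantified on another set of transcripts. Fold changes were computed from reads scaled for depth, with a 98% interval, and a gene was called higher or lower where the whole interval lay beyond a 2-fold change and the gene was active, that is, over 3 TPM in one or both libraries. Since the effective length of a gene can differ between the 2 transcript sets, fold changes per effective length are also given from SC monocytes to APCs, and in the other comparisons for calls that change with them. All 7 monocyte markers were over 3 TPM in every library. Their summed level was 10714, 9365 and 3754 TPM in BM monocytes, SC monocytes and APCs. Ly6C, CD11b and, in the spinal cord, CD64 were gated in the sort, so the values of their genes were partly set by it. In the same order Ly6c2 had 5205, 3602 and 1067 TPM and Plac8 had 2564, 3506 and 500 TPM. Csf1r went the other way in TPM (374, 676 and 1134 TPM). From SC monocytes to APCs, however, its log2 fold change was 0.18 from reads and 0.83 per effective length. In bulk libraries, fewer cells of a type and less RNA per cell cannot be told apart.

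Promoter sequences were available from RefSeq (GRCm38.p6) for 7 of the 10 genes. Those of Ctss, Ctsk and Ctsz are shown because all 3 genes were called higher in SC than in BM monocytes and their windows hold no annotated exon. Ctss and Ctsk are also neighbours on chromosome 3, with the same orientation and 17423 bases between the end of Ctsk and the start of Ctss, although their levels differed in every library. Each sequence is the 250 bases before the annotated start, 5′ to 3′ on the strand of the gene, and capitals mark a match to one of the motifs searched.
Ctss, chr3:95526536-95526785, plus strand: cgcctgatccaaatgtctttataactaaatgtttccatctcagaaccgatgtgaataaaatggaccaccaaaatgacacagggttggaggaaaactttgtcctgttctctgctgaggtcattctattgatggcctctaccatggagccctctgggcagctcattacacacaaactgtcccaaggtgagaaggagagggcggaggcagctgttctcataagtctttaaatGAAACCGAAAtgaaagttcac
Ctsk, chr3:95498960-95499209, plus strand: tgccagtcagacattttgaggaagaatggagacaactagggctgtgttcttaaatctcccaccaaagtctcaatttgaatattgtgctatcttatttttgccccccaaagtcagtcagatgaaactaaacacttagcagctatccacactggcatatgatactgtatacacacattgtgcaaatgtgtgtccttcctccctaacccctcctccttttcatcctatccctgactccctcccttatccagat
Ctsz, chr2:174439040-174439289, minus strand: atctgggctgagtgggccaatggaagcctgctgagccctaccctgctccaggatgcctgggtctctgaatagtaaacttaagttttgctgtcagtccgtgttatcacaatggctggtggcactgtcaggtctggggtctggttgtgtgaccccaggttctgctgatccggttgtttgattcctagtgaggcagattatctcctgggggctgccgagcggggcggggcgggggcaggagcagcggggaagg

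The motifs searched on both strands were CACGTG (E-box), TCACGTG (the E-box form found in lysosomal genes, which contains the first motif), TTCNNNGAA (GAS type), an ISRE-type element (GAAA, any 2 bases, GAAA) and TGACTCA (AP-1). The match in Ctss is an ISRE-type element that lies 21 to 12 bases before the start, and 2.98% of the 32851 promoter windows of this length hold one. None of the 5 motifs was found in the windows of Ctsk and Ctsz. CACGTG was found in windows of Ctsa, Ctsd and Ctsl and in 6.02% of all windows. TCACGTG was found in those of Ctsa and Ctsd and in 3.13% of all windows. TTCNNNGAA was found in that of Ctsc and in 7.02% of all windows. TGACTCA was in none of the 8 windows of these genes and in 4.46% of all windows. Some windows with a match overlap exons in the GENCODE annotation. That of Ctsd lies in its own first exon over 211 bases, that of Ctsl in an exon of Ctsl over 48 bases, and those of Ctsa in exons of Neurl2 over 173 bases and of Ctsa over 164 bases. GC content was 43.2% for Ctsk, 44.8% for Ctss, 58.8% for Ctsz and 67.2% for Ctsd, against a median of 52.4% over all windows.

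Cathepsin transcripts were abundant in all 3 populations and most abundant in the APCs. The 10 genes together held 6609.62 TPM in BM monocytes, 14352 TPM in SC monocytes and 19838 TPM in APCs, or 0.661%, 1.44% and 1.98% of the transcripts. The sum was 2.17 times as high in SC as in BM monocytes, and 1.38 times as high in APCs as in SC monocytes. In all, 8 genes were over 100 TPM in every library, and only Ctsk and Ctse were below that level. In BM monocytes 1 of the genes was among the 100 most abundant genes, against 3 in SC monocytes and 4 in APCs.

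**Figure D1:**
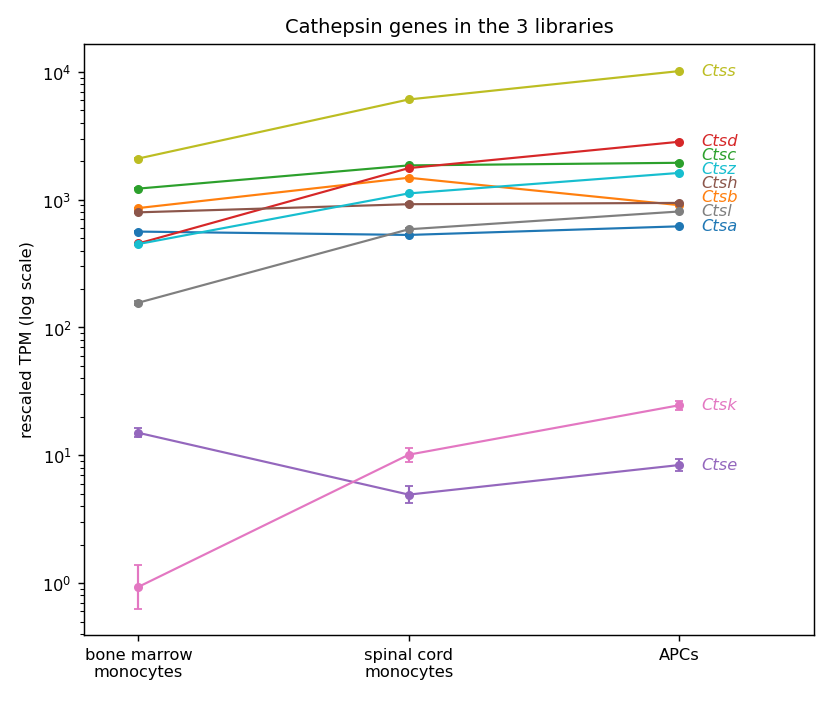
Rescaled TPM of the 10 cathepsin genes (log axis) in the libraries of BM monocytes, SC monocytes and APCs, with 95% Wilson intervals of counting error, which are mostly smaller than the points. Ctss was highest in each library (2097, 6079 and 10133 TPM), and Ctsk and Ctse lay far below the other genes.

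To learn which cathepsins differed between monocytes of the bone marrow and of the inflamed spinal cord, these 2 libraries were compared. Ctsk, Ctsl, Ctsd, Ctss and Ctsz were higher in SC monocytes, with log2 fold changes between 1.61 (Ctsz) and 3.70 (Ctsk). Ctse was lower, and Ctsa, Ctsb, Ctsc and Ctsh were not called. Thus 5 of 10 genes were called higher, where 13.6% of the 10072 active genes were, and 1 of 10 lower, where 11% were. Per effective length the same 6 genes were called, where 13.8% and 11.5% of active genes were. The median log2 fold change was 1.29 for the cathepsins and -0.17 for all active genes. Each gene's 98% interval was apart from that of the next gene in the order of fold changes, except for Ctsl and Ctsd. When libraries were scaled by total reads instead, the median of all genes shifted by -0.16 here and by -0.14 from BM monocytes to APCs, and the same cathepsins were called. With an assumed spread between libraries (a coefficient of variation of 0.2), Ctss, Ctsz and Ctse were no longer called, which left 3 genes higher and 0 lower, where 8.99% and 4.57% of active genes were. With 0.4 only Ctsk was called higher and 0 genes lower, where 6.23% and 2.26% of active genes were.

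To learn which cathepsins differed between SC monocytes and the APCs derived from them, the second comparison was made. Only Ctsk was called higher and none of the 10 was called lower, where 1.94% and 1.66% of the 9734 active genes were. With an assumed coefficient of variation of 0.2 or 0.4, Ctsk was no longer called, where 0.894% and 0.442% of active genes were called higher. Per effective length the counts were the same, where 2.38% and 3.33% of active genes were called. The median log2 fold change was 0.51 for the cathepsins and -0.03 for all active genes. In this step 9 of 10 fold changes were above 0, from 0.22 for Ctsh to 1.27 for Ctsk, but the signs of Ctsb and Ctsc turned when effective length was taken into account. Of the others, Ctsh had 0.11 (0.08 to 0.15) and Ctsa 0.30 (0.26 to 0.34) per effective length, both below their values from reads. Those of Ctss (0.82, 0.80 to 0.83), Ctsd (0.76, 0.75 to 0.78), Ctsz (0.61, 0.58 to 0.64) and Ctsl were above them. For Ctsk (1.36) and Ctse (0.84) the intervals of both scales overlapped. The intervals of neighbours in the order overlapped for Ctsk and Ctse, Ctse and Ctss, Ctsz and Ctsa, Ctsb and Ctsl, and Ctsl and Ctsh. From BM monocytes directly to APCs, 6 of 10 genes were called higher (14% of 10190 active genes) and none lower (11.7%), and these were the genes of the first comparison plus Ctsb. Per effective length Ctsb was not called, which left 5. Of the active genes, 14.4% were higher and 12.5% lower per effective length. With an assumed coefficient of variation of 0.4, 2 of 10 (Ctsd and Ctsk) were higher, where 7.13% of active genes were. This comparison shares its libraries with the other two.

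**Figure D2:**
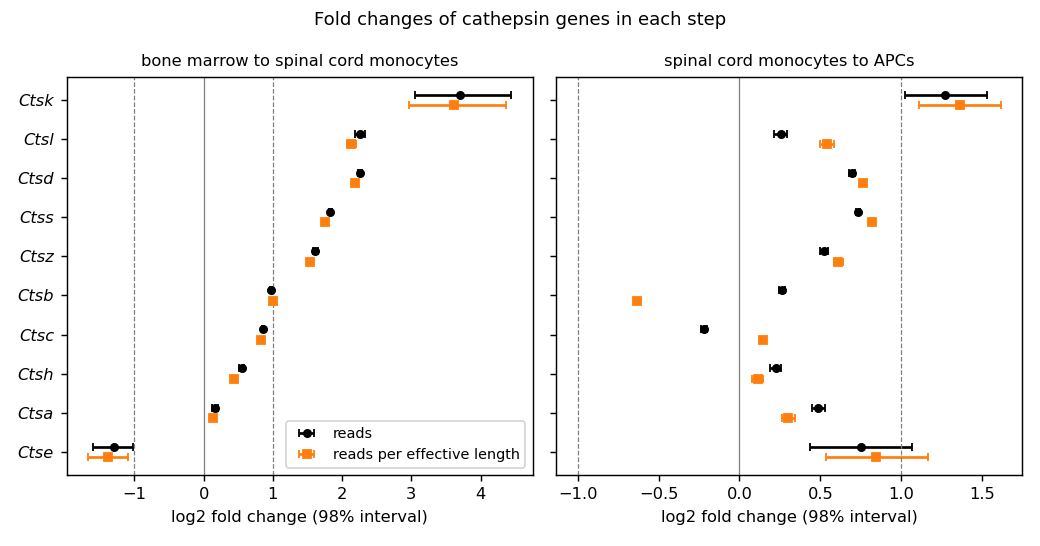
Log2 fold changes of the 10 genes from BM to SC monocytes (left) and from SC monocytes to APCs (right), from reads (black circles) and from reads per effective length (orange squares). Bars are 98% intervals of counting error and dashed lines mark a 2-fold change. On the right only Ctsk passed the line, and Ctsb had 0.26 from reads and -0.63 per effective length.

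Cathepsin S, a cysteine endopeptidase that cleaves the invariant chain and stays active at neutral pH, was the most abundant member. Ctss (ENSMUSG00000038642.10) is on chromosome 3 (GRCm38, 95526786 to 95556403). It had 49141 reads in BM monocytes, 127063 in SC monocytes and 233487 in APCs, or 2097, 6079 and 10133 TPM. It ranked as gene number 77, 15 and 11 by TPM among the common genes. Levels thus stood higher in each spinal cord population than in the bone marrow. Ctss rose from BM to SC monocytes by 1.83 on the log2 scale (98% interval 1.81 to 1.85), a larger value than in 90.2% of active genes. From SC monocytes to APCs the log2 fold change was 0.73 (0.72 to 0.74), which is above that of 94.1% of active genes but below the 2-fold limit. From BM monocytes to APCs it was 2.58 (2.56 to 2.59).

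Cathepsin L is a cysteine endopeptidase related to cathepsin S, and it cleaves the invariant chain in the thymic cortical epithelium. Ctsl (ENSMUSG00000021477.9, chromosome 13, 64359337 to 64370890) had 3293, 11451 and 15127 reads in BM monocytes, SC monocytes and APCs, or 156, 586 and 808 TPM. Ctsl rose from BM to SC monocytes by a log2 fold change of 2.26 (2.19 to 2.32). In the second step the value was 0.25 (0.21 to 0.30) from reads and 0.54 (0.50 to 0.58) per effective length, and neither was called. Although Ctsl differed more than Ctss between the monocytes, Ctss transcripts outnumbered those of Ctsl 13.4, 10.4 and 12.5 times in the 3 libraries.

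Cathepsin B, a cysteine endopeptidase that also acts as a dipeptidyl carboxypeptidase, had a direction that depended on the correction for length. Ctsb (ENSMUSG00000021939.8, chromosome 14, 63122462 to 63145923) had 44569 reads in BM monocytes, 63750 in SC monocytes and 84818 in APCs. Its level was 859, 1484 and 906 TPM, so the APCs had the most reads but not the highest TPM. Its effective length was 2428 and 2217 bases in the 2 monocyte libraries and 4493 bases in APCs, 2.03 times that in SC monocytes. GENCODE M21 lists 1 protein-coding transcript of 4743 bases, whose length equals that of the gene in the APC values, and 2 retained-intron transcripts of 1269 and 801 bases. An effective length differing over 1.5-fold between these libraries was seen for 8.63% of active genes and for no other cathepsin of the 10. The log2 fold change of Ctsb was 0.98 (0.96 to 0.997) between the monocytes, just inside the 2-fold limit. It was 0.26 (0.25 to 0.28) from SC monocytes to APCs, and -0.63 (-0.65 to -0.62) per effective length. From BM monocytes to APCs it was 1.26 (1.24 to 1.28) and called, and 0.41 (0.39 to 0.43) per effective length and not called. The direction of Ctsb between SC monocytes and APCs therefore cannot be given from these values.

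Cathepsin K, a cysteine endopeptidase best known for degrading bone collagen in osteoclasts, had the largest fold change in every comparison but a low level. Ctsk (ENSMUSG00000028111.4, chromosome 3, 95499256 to 95509362) had 25, 242 and 648 reads in BM monocytes, SC monocytes and APCs, or 0.933, 10.1 and 24.6 TPM. The 95% intervals of these levels (0.632 to 1.38, 8.91 to 11.5 and 22.8 to 26.6 TPM) did not overlap. Ctsk rose by a log2 fold change of 3.70 from BM to SC monocytes, with a 98% interval of 8.26-fold to 21.8-fold. It rose 2.41-fold (2.03 to 2.88) from these to APCs, with the lower bound just past the limit and an interval that overlapped that of Ctse. From BM monocytes to APCs the rise was 31.7-fold (20.5 to 52.5). Its neighbour Ctss had 2247, 601 and 411 times its TPM in the 3 libraries.

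Markers of other cells that use Ctsk were read beside it. The 6 osteoclast markers summed to 15.4, 140 and 278 TPM in the same order, most of it Acp5 (15.1, 126 and 226 TPM). Of the defining markers Calcr and Oscar had 0 reads in all 3 libraries, which allows up to 3 reads each, whereas Dcstamp had 0, 59 and 490 reads. Atp6v0d2 of the same list had 6, 414 and 1465 reads and was called higher in both steps (log2 fold changes of 6.42 and 1.67). The 5 fibroblast markers were under 3 TPM in every library and summed to 0.0365, 2.67 and 2.17 TPM. The part of these cells in the level of Ctsk was not tested.

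The remaining cysteine cathepsins are exopeptidases, and of these only Ctsz was called. Cathepsin Z (also called X) removes single residues from the carboxyl end. Ctsz (ENSMUSG00000016256.10, chromosome 2, 174427493 to 174439039) had 11353 reads in BM monocytes, 25257 in SC monocytes and 40188 in APCs, or 449, 1119 and 1618 TPM. It rose between the monocytes by a log2 fold change of 1.61 (1.58 to 1.65), and from BM monocytes to APCs by 2.15 (2.12 to 2.19). In the second step it was 0.52 (0.50 to 0.55) and not called. The gene overlaps Nelfcd, on the opposite strand, by a few bases at its 3′ end, and reads of Nelfcd were 11.7%, 1.46% and 0.958% of those of Ctsz.

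Cathepsin C (dipeptidyl peptidase I) activates the serine proteases of granules. Ctsc (ENSMUSG00000030560.17, chromosome 7, 88278085 to 88310888) was the second most abundant cathepsin in both monocyte libraries. It had 49592, 65375 and 62230 reads in BM monocytes, SC monocytes and APCs, or 1219.95, 1853 and 1942 TPM. The log2 fold change was 0.86 (0.84 to 0.88) between the monocytes. Between SC monocytes and APCs it was -0.22 (-0.24 to -0.20) from reads and 0.15 (0.13 to 0.17) per effective length, so that neither step was called and the direction of the second depended on length. Cathepsin H, an aminopeptidase, had the smallest fold change of the 3 between the monocytes. Ctsh (ENSMUSG00000032359.14, chromosome 9, 90054152 to 90076089) had 15017, 16001 and 20688 reads, or 795, 921 and 943 TPM, with log2 fold changes of 0.55 (0.51 to 0.59) and 0.22 (0.19 to 0.26).

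The aspartic cathepsins differed from each other. Cathepsin D is the main aspartic protease of lysosomes. Ctsd (ENSMUSG00000007891.16) lies on chromosome 7 from 142375911 to 142388038. It had 17439 reads in BM monocytes, 60455 in SC monocytes and 108502 in APCs, or 454, 1765 and 2837 TPM, and its rank among the common genes was 327, 86 and 40. Its log2 fold change was 2.25 (2.22 to 2.28) between the monocytes and 2.96 (2.94 to 2.99) from BM monocytes to APCs, both called. From SC monocytes to APCs it was 0.70 (0.68 to 0.71) and not called. The gene model Gm49369, on the same strand, shares 4 identical exons with Ctsd, and 808 of its 1023 exonic bases (79.0%) are also exonic in Ctsd, so that reads can be split between them. Gm49369 was estimated at 2.84, 74.0 and 9657 reads, the last being 8.90% of the reads of Ctsd. With its reads added to those of Ctsd, the log2 fold change to APCs was 0.82 (0.80 to 0.83) and the gene was still not called.

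Cathepsin E, an aspartic protease of endosomes rather than lysosomes, was the one member called lower, and this between the monocytes. Ctse (ENSMUSG00000004552.16, chromosome 1, 131638306 to 131675505) had 598 reads in BM monocytes, 176 in SC monocytes and 328 in APCs, or 15.0, 4.92 and 8.39 TPM. It was thus lowest in SC monocytes, with APCs in between, and no 2 of its 95% intervals overlapped. The log2 fold change was -1.30 (-1.59 to -1.02) between the monocytes and was called, with the bound nearest 0 just past the limit. With size factors taken over the 3 libraries together it was -1.28 and was not called. From SC monocytes to APCs it was 0.75 (0.44 to 1.06), and from BM monocytes to APCs -0.54 (-0.77 to -0.31), neither of them called. Ctsd had 30.3 times the TPM of Ctse in BM monocytes, 359 times in SC monocytes and 338 times in APCs.

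Cathepsin A is a serine carboxypeptidase that protects beta-galactosidase and the sialidase Neu1 in a lysosomal complex. Ctsa (ENSMUSG00000017760.16, chromosome 2, 164832873 to 164841032) had 15890, 12950 and 20114 reads in BM monocytes, SC monocytes and APCs, or 562, 529 and 618 TPM. Its level was thus similar in the 3 libraries. The log2 fold change was 0.16 (0.12 to 0.20) between the monocytes from reads and -0.087 from TPM plus 1, and 0.49 (0.45 to 0.53) from SC monocytes to APCs. The gene overlaps Neurl2 and Pltp on the opposite strand, whose reads were at most 3.63% of its own. Its 2 partners were not called in any comparison, and Neu1 stood at 41.2, 57.4 and 53.1 TPM.

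The make-up of the cathepsin transcripts differed between the populations. Ctss made up 31.7% of the summed TPM in BM monocytes, 42.4% in SC monocytes and 51.1% in APCs. The share of Ctsd was 6.87%, 12.3% and 14.3%. The shares of Ctsc (18.5%, 12.9% and 9.79%), Ctsh (12.03%, 6.42% and 4.75%) and Ctsa (8.51%, 3.69% and 3.12%) were lower in the spinal cord populations, although the TPM of Ctsc and Ctsh was not. Of the gain in summed TPM from BM to SC monocytes, 51.4% was Ctss and 16.9% Ctsd, and of the net gain from these to APCs 73.9% was Ctss and 19.5% Ctsd. Without Ctss, the sum was 1.83 times as high in SC as in BM monocytes and 1.17 times as high in APCs as in SC monocytes. The values for APCs rest on the lower TPM of Ctsb and on leaving out Gm49369. With Ctsb of APCs set from its fold change of reads (1782 TPM), the share of Ctss in this gain was 63.7%, that of Ctsd 16.8%, and the sum without Ctss was 1.28 times as high. With the TPM of Gm49369 (6.92 and 793 in SC monocytes and APCs) added to Ctsd, these values were 64.6%, 29.6% and 1.27 times. By class, the 4 cysteine endopeptidases held 47.1%, 56.8% and 59.8% of the sum, the 3 cysteine exopeptidases 37.3%, 27.1% and 22.7%, and the 2 aspartic cathepsins 7.10%, 12.3% and 14.3%.

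**Figure D3:**
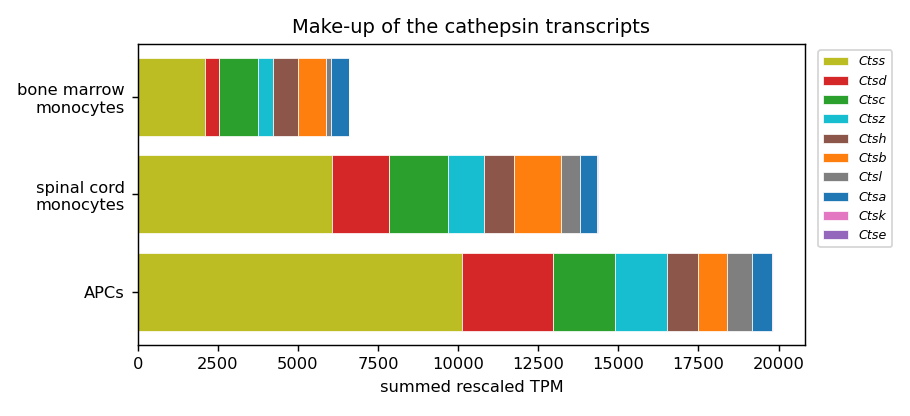
Summed rescaled TPM of the 10 cathepsin genes in each library, divided by gene. Bars start at 0, and the sums are 6609.62, 14352 and 19838 TPM. Ctss is the widest segment in each bar, and Ctsk and Ctse are too small to see.

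Another 13 genes named as cathepsins were low or silent. Of these, 8 (Ctsll3, Cts3, Cts6, Cts7, Ctsj, Ctsm, Ctsq and Ctsr) had 0 reads in all 3 libraries, which allows up to 3 reads in each. Most of them are placental cathepsins of the mouse, of which another, Cts8, had 6, 1 and 4 reads. Cathepsin G, a serine protease of granules that is made in precursors in the marrow, was lower in SC monocytes. Ctsg had 929, 7 and 8 reads, or 59.5, 0.498 and 0.510 TPM, a log2 fold change of -6.46 (-7.87 to -5.39) between the monocytes. Ctsw, a cathepsin of cytotoxic lymphocytes, had 0, 102 and 162 reads, at least 46.8-fold higher in SC than in BM monocytes if 3 reads are set in place of 0. The 4 T cell markers moved with it, with summed levels of 0.347, 28.2 and 42.6 TPM and Cd3g and Cd4 at 0 reads in BM monocytes, and their part in this difference was not tested. Ctsf, a widely expressed cysteine cathepsin, had 18, 87 and 270 reads and was called higher in APCs than in SC monocytes, with a log2 fold change of 1.48 (1.08 to 1.90).

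Cystatins and stefins bind cysteine cathepsins in their active site. Of 17 listed inhibitors, 15 were among the common genes and 8 were active between the monocytes. Of these 8, 7 were called higher in SC than in BM monocytes and none lower, against 13.6% and 11% of active genes. Their median log2 fold change was 3.30, against -0.17 for all active genes. Ctla2a, Ctla2b, Stfa2l1 and Gm5483 were active only through SC monocytes (2.19, 0.504, 0.735 and 0.545 TPM in BM monocytes). The filter thus favoured their rise, and the count and median rest partly on them. In APCs 2 of 9 (Cst7 and Stfa2) were called higher than in SC monocytes and none lower, against 1.94% and 1.66% of active genes. The median was 0.02, against -0.03 for all active genes. Stfa2 was active in this step only through APCs (0.233 TPM in SC monocytes and 6.65 TPM in APCs). Cst3 (cystatin C), the most abundant in BM monocytes and APCs, was the one active inhibitor not called in the first comparison, at 1289, 1313 and 1848 TPM. Cstb (stefin B) and Cst7 (cystatin F, which inhibits cathepsin C) were chosen for naming after their values were seen. Cstb had 311, 1548 and 1389.97 TPM and rose between the monocytes 5.97-fold (5.66 to 6.29). Cst7 had 7.52, 24.0 and 62.7 TPM and was called higher in both steps (1.95 and 1.39). Serpina3g rose from 7.93 to 310.166 TPM between the monocytes, and had 160.413 TPM in APCs. Ctla2b, which resembles a cathepsin propeptide, had 0.504, 19.0 and 19.5 TPM. Stefin genes are near-identical copies, so that their reads, 33 in APCs for Stfa2 and 66 for Stfa2l1, are uncertain. The 7 cysteine cathepsins had 3.47 times the summed TPM of Cst3, Cstb and Cst7 in BM monocytes, 4.18 times in SC monocytes and 4.96 times in APCs. The last value rests on the TPM of Ctsb in APCs (906 TPM), which depends on the correction for length. Other inhibitors, among them Serpina3g, were left out of these ratios.

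Other lysosomal peptidases did not all follow the cathepsins. Of 7 genes, Lgmn and Dpp7 were called higher and Napsa lower in SC than in BM monocytes, against 13.6% and 11% of active genes. None was called from SC monocytes to APCs, where 1.94% of active genes were higher and 1.66% lower. Lgmn (legumain, which processes cathepsins and antigens) had 66.7, 507 and 896 TPM, a log2 fold change of 3.21 (3.14 to 3.29) between the monocytes. Dpp7 had 10.7, 31.1 and 26.4 TPM. Napsa, an aspartic protease related to Ctsd and Ctse, had 676, 204 and 151 TPM and fell by 1.42 on the log2 scale between the monocytes. Among 9 genes of mannose 6-phosphate tagging, sorting and lysosomal transcription, 2 were called higher and 1 lower between the monocytes, against 13.6% and 11% of all active genes, and none in the second step. Igf2r, the large mannose 6-phosphate receptor, rose from 121 to 2920 reads, and had 3838 in APCs. Sort1, a sorting receptor, fell from 130 to 14.0 TPM, and had 18.1 TPM in APCs. M6pr, the small receptor, had 230.217, 368 and 356 TPM and was not called.

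Genes of MHC class II presentation, in which cathepsins S and L act, were called higher in SC than in BM monocytes for 9 of 9 active genes, and higher in APCs than in SC monocytes for 7 of 10, against 13.6% and 1.94% of all active genes. Per effective length the second count was 6, without H2-Ob. The median log2 fold changes of these genes were 5.08 and 1.35. Ciita and H2-Oa (0.779 and 2.27 TPM in BM monocytes) were active in the first comparison only through SC monocytes. H2-Ob was active in the second only through APCs (2.75 TPM in SC monocytes and 5.97 TPM in APCs). The invariant chain Cd74 had 38.2, 4722 and 11642 TPM in BM monocytes, SC monocytes and APCs. Between the monocytes its log2 fold change was 7.22 (7.10 to 7.34), against 1.83 for Ctss, and 1.34 (1.32 to 1.35) in the second step, against 0.73. The class II chain H2-Aa had 8.81, 1917 and 4520.1 TPM. Ctss had more TPM than Cd74 in both monocyte libraries, and less in APCs. Of 6 listed granule serine proteases that cathepsin C activates, 4 were active between the monocytes. Of these, 3 (Elane, Ctsg and Prtn3) were called lower and 1 (Gzmb) higher. Of all active genes 11% were called lower and 13.6% higher. Ctsg was active only through BM monocytes (59.5 TPM, against 0.498 in SC monocytes). Gzmb was active only through SC monocytes (5.38 TPM). The filter thus favoured the direction of both. Prtn3 fell from 329 to 56.6 TPM and Elane from 172 to 3.50 TPM, while Ctsc itself was not called. Gzmb, which is expressed in cytotoxic lymphocytes, had 0, 121 and 261 reads. The T cell markers above moved with it, and their part was not tested. Elane and Prtn3 were also called lower from SC monocytes to APCs, where 1.66% of active genes were. Elane was active in this step only through SC monocytes (3.50 TPM, against 0.849 in APCs). It was not called per effective length, where 3.33% of active genes were lower.

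**Figure D4:**
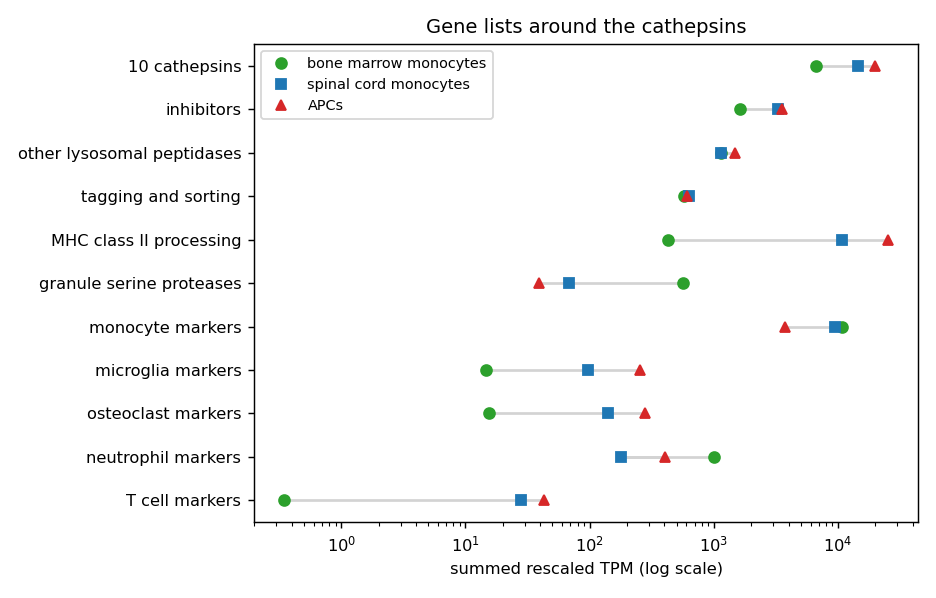
Summed rescaled TPM (log axis) of the cathepsins, of related gene lists and of cell type markers in BM monocytes (green circles), SC monocytes (blue squares) and APCs (red triangles). The cathepsins spanned 6609.62 to 19838 TPM and the MHC class II genes 424 to 25335 TPM.

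Summed markers of microglia, CNS-associated macrophages and endothelium were higher in both spinal cord libraries than in BM monocytes, as were the sums of the cathepsins, and those of neutrophils, dendritic cells and B cells were lower. The 8 microglia markers summed to 14.5, 97.5 and 256 TPM, and all 8 were over 3 TPM in APCs, among them Tmem119 with 1.82, 26.0 and 66.4 TPM and Sall1 with 0, 300 and 1415 reads. The sort of spinal cord cells took those with high CD45, which microglia carry at a lower level. The study nevertheless could not exclude that its APCs held a small number of microglia. Microglia also express cathepsins, and their part in the levels of Ctss, Ctsd, Ctsb, Ctsl and Ctsz was not tested. The neutrophil markers summed to 996, 178 and 405 TPM, in BM monocytes mostly Mmp8 (707, 119 and 137 TPM). Retnlg of that list went the other way (1.77, 16.7 and 57.9 TPM). From SC monocytes to APCs 3 of 5 active neutrophil markers were called higher and none lower, against 1.94% and 1.66% of active genes. The CNS-associated macrophage markers summed to 15.7, 36.8 and 51.1 TPM, and the dendritic cell markers to 40.7, 20.9 and 27.0 TPM. The dendritic cell sum was mostly Flt3 in BM monocytes (37.8, 3.65 and 6.65 TPM), and the other 4 markers of that list were higher in both spinal cord libraries, among them Clec9a with 0.108, 4.38 and 7.40 TPM. The B cell markers summed to 8.69, 3.52 and 3.77 TPM and the endothelial markers to 10.045, 28.4 and 16.3 TPM. In APCs each of these sums was under the level of Ctsa (618 TPM). Those of microglia, neutrophils, CNS-associated macrophages and dendritic cells were above that of Ctsk (24.6 TPM). The endothelial sum was above the level of Ctse (8.39 TPM). A sum of markers does not measure how many cathepsin transcripts such cells bring.

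How much the fold changes of the 10 genes rested on the processing is shown by their spread over the alternatives. From BM to SC monocytes that of Ctsd ranged from 1.96 to 2.28, that of Ctss from 1.53 to 1.85 and that of Ctsk from 2.42 to 3.73. From SC monocytes to APCs that of Ctsb ranged from -0.71 to 0.30, and that of Ctss from 0.72 to 0.97.

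**Figure D5:**
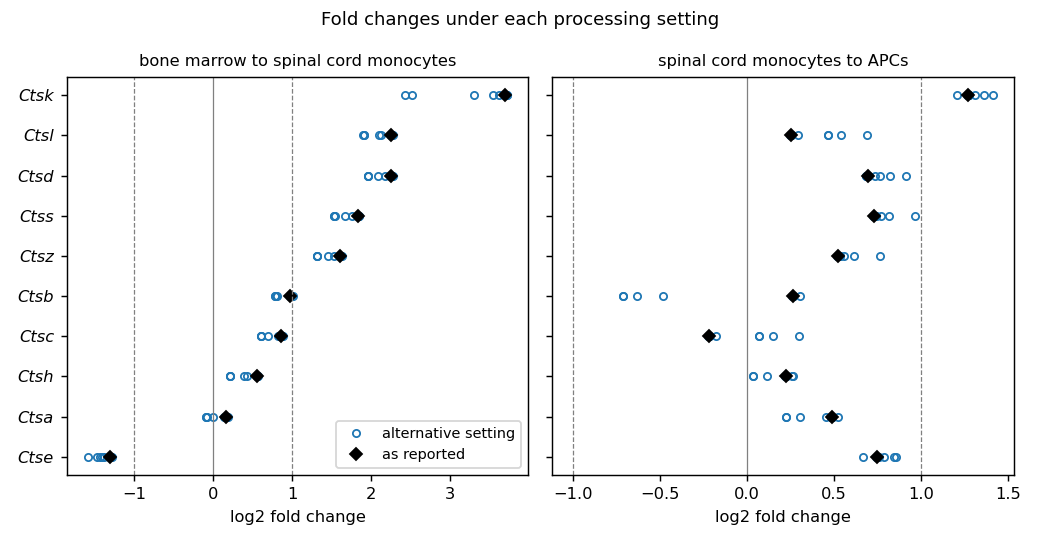
Log2 fold changes of the 10 genes as reported (black diamonds) and under each alternative setting (open circles), from BM to SC monocytes (left) and from SC monocytes to APCs (right). Dashed lines mark a 2-fold change. Points on both sides of 0 were seen for Ctsa on the left and for Ctsb and Ctsc on the right.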

How the data were processed

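RNA-Seq libraries of the 3 sorted populations were analysed from gene-level values. The authors ran Salmon 0.14.1 with GENCODE vM22 on mm10 and deposited TPM, which are normalized for effective length and depth, and expected counts (estimated reads), which are not. Lengths and effective lengths were also deposited. How the transcript set of the APC library was made is not given in the sources used here. The common genes held 84.9%, 85.3% and 100.0% of the deposited TPM of BM monocytes, SC monocytes and APCs.

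Reads were rounded, and size factors (median of ratios) were taken for each pair of libraries. The log2 ratio was the median of a gamma posterior of reads plus 1, with percentiles 1 and 99 as its interval. This computes the definition of the study's GFold analysis anew, and GFold was not run. The 3 TPM limit was set here from the study's threshold for active expression. No p-value is given, since edgeR and DESeq2 tests need replicates. TPM intervals are 95% Wilson intervals, and the floor is 3 reads. The procedure was tested on simulated data. Names and coordinates came from GENCODE M21 (GRCm38), which shares identifier and version for 99.0% of these genes.

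The cathepsins, the gene lists and the motifs were chosen with earlier results of these data known. Of 118 listed symbols, 115 were in the common genes. Named were all 10 cathepsins and, per list, genes among the most abundant one and up to 4 called ones with the largest fold change. Up to 3 genes of a marker list were allowed, besides defining markers at 0 reads. Alternatives were other scalings, effective length, other TPM limits, an assumed spread between libraries, other percentiles and priors, a plain 2-fold change, and TPM with a pseudocount. Software was scipy 1.17.1, pandas 2.3.3, numpy 2.4.6 and matplotlib 3.10.9 in Python 3.11.15. TMM factors came from edgeR 4.0.16 in R 4.3.3.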

Additional observations from a re-analysis of the deposited data

How the results depend on the processing

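Each fold change was recomputed under 15 alternatives. With an assumed coefficient of variation of 0.2 between libraries, 3 cathepsins (Ctsd, Ctsk, Ctsl) were called higher and 0 lower from BM to SC monocytes (8.99% and 4.57% of active genes). From these to APCs 0 were higher (0.894%). With 0.4 these counts were 1 (Ctsk, against 6.23% of active genes), 0 (2.26%) and 0 (0.442%). From BM monocytes to APCs 2 (Ctsd, Ctsk) were higher, against 7.13%. With an interval between percentiles farther out than 1 and 99, neither the fall of Ctse nor the second rise of Ctsk was called. The counts were 0 lower, against 995 of 10072 active genes, and 0 higher, against 170 of 9734. With size factors over the 3 libraries together, an alternative added after the data were examined, 0 were lower, against 1073 of 10072 active genes. The choice of factors for each pair of libraries, the addition of Gm49369 to Ctsd and the read-based value of Ctsb in the sum were also settled after values were seen.

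Signs turned for 3 genes. Ctsa had -0.087, -0.087 and -0.081 between the monocytes on log2 of rescaled TPM plus 1, rescaled TPM plus 0.1 and deposited TPM plus 1. From SC monocytes to APCs, Ctsb had -0.63 per effective length and -0.71, -0.71 and -0.48 on these 3 scales, and Ctsc had 0.15, 0.068, 0.068 and 0.30. The summed TPM was 5614 and 12241.5 as deposited in BM and SC monocytes. As a share of reads, on the scale of TPM, the sums were 6443, 14654 and 20778 in BM monocytes, SC monocytes and APCs. On reads, the share of Ctss was 23.7%, 33.2% and 39.8%, and that of Ctsd 8.43%, 15.8% and 18.5%.

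No paired analysis was possible because each population was 1 library, and for the same reason no replicate was left out. Depth limited Ctsk (25 reads in BM monocytes) and Ctse (176 in SC monocytes). For Ctsb and Ctsc the direction from SC monocytes to APCs was limited by the correction for length.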
